A study of Mus musculus with 6 samples.

Results

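The 40 genes described here make the machinery that copies DNA in S phase. They were listed by symbol, as genes of replication licensing, the replication fork and nucleotide synthesis, and all 40 were present among 53735 genes. All 40 reached a mean of 10 normalized counts and so were among the 15229 genes tested. The samples were primary cultures of mouse lung endothelial cells, taken with beads against CD31 and ICAM2 and grown to confluence without passage or treatment. Poly(A)-selected RNA was sequenced in 2 libraries labelled ZMPSTE24 wild type and 4 labelled ZMPSTE24 knockout. Zmpste24 encodes the protease that trims prelamin A to lamin A, and mice without it age early. The labels give no age, sex or strain, speak of 2 cohorts of mice without assigning a library to either, and do not say whether each library came from a separate animal.

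DNA replication is prepared in G1, when the origin recognition complex, Cdc6 and Cdt1 load the MCM helicase onto origins. At the start of S phase, Cdc45 and the GINS complex join the helicase, and polymerases, the PCNA clamp and the clamp loader build the fork. Many of these genes are transcribed when E2F factors are released from the retinoblastoma protein, so their RNA is abundant in cycling cells and low in resting ones. Endothelium of the adult lung divides little, while cultured endothelial cells can cycle until they reach confluence or senescence. RNA from a whole culture cannot tell fewer cycling cells from less RNA per cell.

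Stretches upstream of 6 members are shown because E2F is the factor best known to act on these genes. Most members moved together across libraries, but Rrm1, one of the 6, followed the others less closely. The part of E2F in the values of these libraries was not tested. Sequences are from RefSeq on GRCm38.p6, whose promoter windows run from 250 bases before to 50 bases after a start site. Of the 40 genes, 33 had a window. The E2F motif was searched as TTTCCCGC, TTTCGCGC, TTTGCCGC and TTTGGCGC on both strands, with overlaps allowed. It was found in windows of 14 of the 33 genes (42.4%), against 2.6% of all 27025 genes with a window, a comparison not matched for base composition. Each line gives the 250 bases before the start in transcript direction, none of them exonic in GENCODE M21, with E2F matches in capitals. Mcm5, Mcm6 and Pola1 hold matches in this stretch. Mcm2, Mcm10 and Rrm1 do not, which says only that these letters are absent from it.
Mcm5: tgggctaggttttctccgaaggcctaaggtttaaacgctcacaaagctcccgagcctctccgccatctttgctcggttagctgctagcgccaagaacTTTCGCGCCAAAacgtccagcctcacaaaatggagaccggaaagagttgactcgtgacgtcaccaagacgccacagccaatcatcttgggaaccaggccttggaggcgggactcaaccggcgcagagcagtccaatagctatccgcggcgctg
Mcm6: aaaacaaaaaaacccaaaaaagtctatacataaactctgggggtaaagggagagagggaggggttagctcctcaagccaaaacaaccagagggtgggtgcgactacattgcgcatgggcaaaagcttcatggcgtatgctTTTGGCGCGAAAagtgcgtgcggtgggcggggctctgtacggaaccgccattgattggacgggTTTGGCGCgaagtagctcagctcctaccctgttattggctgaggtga
Pola1: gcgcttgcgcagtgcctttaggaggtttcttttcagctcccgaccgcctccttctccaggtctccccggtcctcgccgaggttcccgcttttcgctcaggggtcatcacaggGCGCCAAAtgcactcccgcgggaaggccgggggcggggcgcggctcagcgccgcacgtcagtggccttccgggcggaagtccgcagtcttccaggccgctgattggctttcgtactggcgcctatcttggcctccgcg
Mcm2: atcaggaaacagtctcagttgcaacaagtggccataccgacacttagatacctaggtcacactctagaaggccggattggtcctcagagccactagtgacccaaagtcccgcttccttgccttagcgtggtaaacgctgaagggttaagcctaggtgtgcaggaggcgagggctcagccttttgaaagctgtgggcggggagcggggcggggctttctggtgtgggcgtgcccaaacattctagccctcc
Mcm10: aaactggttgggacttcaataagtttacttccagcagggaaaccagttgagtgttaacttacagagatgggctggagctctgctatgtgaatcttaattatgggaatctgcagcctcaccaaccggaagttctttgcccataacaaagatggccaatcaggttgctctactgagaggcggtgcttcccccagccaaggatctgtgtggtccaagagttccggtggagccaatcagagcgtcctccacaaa
Rrm1: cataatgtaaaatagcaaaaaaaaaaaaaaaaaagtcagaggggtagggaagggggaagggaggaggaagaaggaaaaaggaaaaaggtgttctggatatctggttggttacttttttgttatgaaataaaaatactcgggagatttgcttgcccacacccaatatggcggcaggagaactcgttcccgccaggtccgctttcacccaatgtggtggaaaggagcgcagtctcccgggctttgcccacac
In the order shown they lie at chr8:75109259-75109508 (plus strand), chr1:128359706-128359955 (minus), chrX:93632156-93632405 (minus), chr6:88898781-88899030 (minus), chr2:5012792-5013041 (minus) and chr7:102441445-102441694 (plus). In Mcm5 the matches begin at positions -153 and -149 from the start and overlap, one on each strand, as TTTCGCGCCAAA. In Mcm6 they begin at -110, -106 and -47, and the first pair overlaps as TTTGGCGCGAAA. Pola1 has 1 match, at -138, on the opposite strand.

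The libraries held 32699024 to 45613685 reads, and the member with the fewest reads in a library, Gins1, still had 74. Wild type 1 and knockout 1 differed from the other 4 libraries across the transcriptome, a split that no label names. They are called the first library set below and the other 4 the second, and each knockout-labelled library is also set against the wild type library of its own set. Zmpste24 stood at 5503 (wild type 1), 4148 (wild type 2), 5079, 3764, 3599 and 3720 (knockout 1 to 4) normalized counts. The labels do not say which part was deleted, so these counts do not check the genotype. All 10 endothelial markers were expressed, but 7 fibroblast markers summed to more than they did in each of the 6 libraries. Collagen genes made up most of that sum in wild type 1, with Col1a1 at 173437 and Col1a2 at 184725 of 429939 normalized counts. Such sums do not give shares of cells, so they do not test the submitters' description of nearly pure endothelium.

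The main comparison asked whether replication genes differed between knockout-labelled and wild type libraries. None of the 40 passed, and for all 40 the values of both groups overlapped. Over all tested genes, 4.68% had groups that did not overlap, a share so low that 0 of 40 does not set the members apart. The members' median difference was -0.10 on the log2 scale (knockout minus wild type), against 0.00074 over all tested genes. Single members lay between -0.41 (E2f8) and 0.20 (Mcm7), with standard errors of 0.15 to 0.68. By limma on log2(normalized count + 1), 0 of 40 were called at an adjusted p below 0.05 (0.00657% of all genes) and 0 at an unadjusted p below 0.05 (0.939% of all genes). The quasi-likelihood test of edgeR on the recovered whole reads called 0 of 40, with 0 at an unadjusted p below 0.05 (background 0.00657% and 0.998%). DESeq2 called 0 of 40 too, with 0 at an unadjusted p below 0.05 (background 0.046% and 1.43%). Nothing in the labels says that libraries are separate animals, so these p-values measure only the spread between libraries.

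The sign of the small differences depended on the fit and on single libraries. The limma estimate was below 0 in 34 of 40 members, that of edgeR in 23 and that of DESeq2 in 25. Leaving out 1 library turned the direction of the limma estimates: 32 of 40 were above 0 without knockout 2 (median 0.09), 23 without knockout 1 (median 0.04) and 22 without wild type 2 (median 0.06). When the fit held a term for the library set, the limma estimate was below 0 in 40 of 40, with a median of -0.21. In that fit limma, edgeR and DESeq2 again called 0 of 40 (background 0.00657%, 0.0131% and 0.328%), with 0 at an unadjusted p below 0.05 (background 3.51%, 3.51% and 3.66%). The 95% intervals with genotype alone were wide. That of Gins4, the narrowest, ran from -0.46 to 0.26, and that of Mcm10, the widest, from -1.77 to 1.56, which includes a change of more than 2-fold in either direction.

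**Figure D1:**
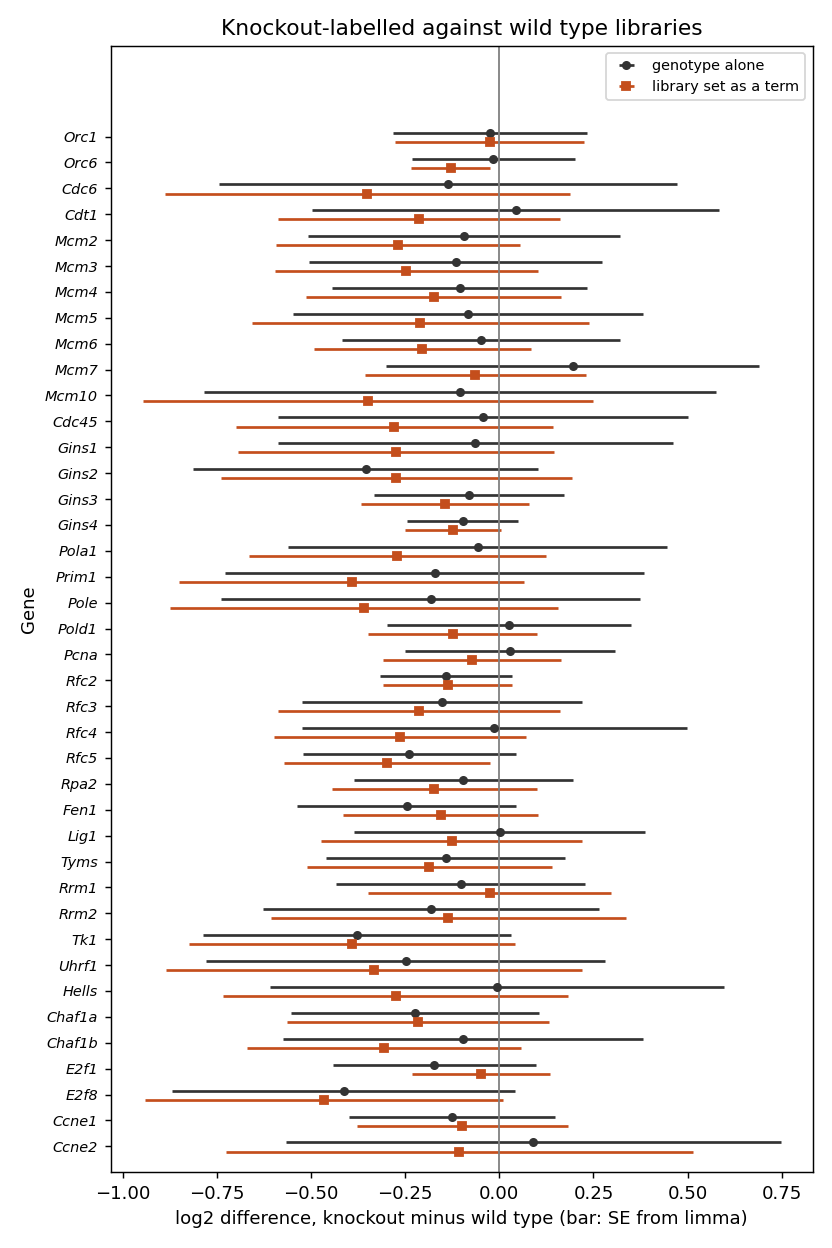
Log2 difference of each of the 40 replication genes, knockout-labelled minus wild type libraries, as estimated by limma from genotype alone and with a term for the library set. Bars are standard errors. Estimates lie between -0.47 and 0.20, and 0 of the 40 genes passed in either fit.

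What most members shared was a spread between libraries. Knockout 4 held the highest value of 37 of the 40 genes, and the lowest value was in knockout 2 for 25 and in knockout 1 for the other 15. Over all tested genes, knockout 4 was highest in 17.9%, knockout 2 lowest in 17.7% and knockout 1 lowest in 24.0%. The highest library exceeded the lowest by a median of 2.45-fold over the members, from 1.30-fold for Gins4 to 4.56-fold for Ccne2, against a median of 1.71-fold over all tested genes. Relative to each gene's mean over the 6 libraries, the median member stood at -0.10 and 0.23 (log2) in wild type 1 and 2, and at -0.43, -0.56, 0.26 and 0.57 in knockout 1, 2, 3 and 4. The knockout-labelled libraries therefore lay on both sides of the wild type libraries.

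Within the library sets the knockout-labelled libraries departed from wild type in different directions. Knockout 1 was below wild type 1 in 38 of 40 members, with a median log2 difference of -0.35. Knockout 2 was below wild type 2 in 40 of 40, with a median of -0.82. Knockout 3 lay close to wild type 2, above it in 25 members and below it in 15, with a median of 0.06. Knockout 4 was above wild type 2 in 39 of 40, with a median of 0.38. Knockout 2, 3 and 4 are all compared here with the same library, wild type 2, and each difference is between single libraries without a replicate. Over all tested genes the 4 medians lay between -0.02 and 0.01.

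At a 2-fold limit, 9 of the 40 members were lower in knockout 2 than in wild type 2 (22.5%, background 4.16%). Knockout 1 had 1 such member against wild type 1, E2f8 (background 2.95%). Knockout 3 had 0 at least 2-fold lower and 0 at least 2-fold higher than wild type 2 (background 2.46% and 3.38%), and knockout 4 likewise had 0 and 0 (background 1.74% and 1.21%). Between knockout 4 and knockout 2, a pair singled out after the values were seen, 27 members were at least 2-fold higher in knockout 4 (67.5%, background 5.39%). This difference lies between libraries of one genotype label.

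**Figure D2:**
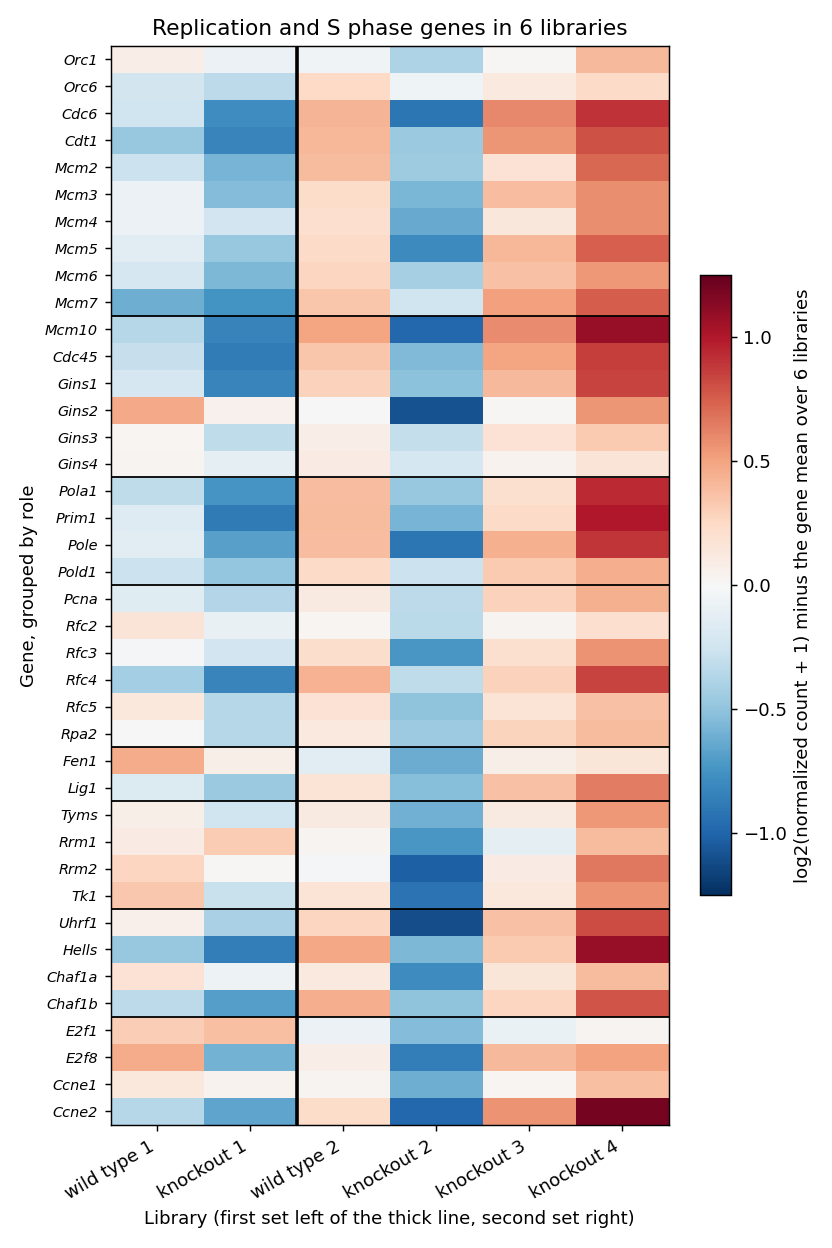
Heat map of the 40 replication genes (rows, grouped by role) in the 6 libraries (columns), as log2(normalized count + 1) minus the gene's mean over the libraries. Knockout 4 is highest for 37 genes, and the lowest library is knockout 2 for 25 genes and knockout 1 for 15.

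In what follows, values per library are normalized counts, first those of wild type 1 and 2 and then those of knockout 1, 2, 3 and 4. Among the licensing genes, Cdc6, which helps load the helicase, stood at 342 and 547, against 236, 217, 616 and 759. Knockout 1 and 2 were lowest and knockout 4 highest, and the groups overlapped (log2 difference -0.14 ± 0.61, SE). Cdt1, the other loading factor, stood at 608 and 1130, against 477, 613, 1244 and 1468. Knockout 1 was lowest, and wild type 1 and knockout 2 were nearly equal. An annotated processed pseudogene matches Cdc6 at 95.2% over 1260 nt, and how reads shared with it were counted is not known.

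The subunits of the helicase ring, Mcm2 to Mcm7, took the order knockout 2, wild type 2, knockout 4 from low to high in the second set for all 6 genes. Mcm5 stood at 1237 and 1604, against 974, 783, 1812 and 2271. Mcm6 stood at 2494 and 3474, against 1952, 2158, 3710 and 4200. In both, knockout 3 lay slightly above wild type 2, and knockout 1 below wild type 1. Mcm7 stood at 1535 and 2978, against 1391, 1966, 3328 and 3947, so both libraries of the first set lay below the other 4. Its estimate was 0.20 ± 0.50 from genotype alone and -0.06 ± 0.29 with a term for the library set (log2, SE), neither beyond its error. Mcm2 ranged from 1614 in knockout 1 to 3969 in knockout 4, Mcm3 from 1350 in knockout 2 to 2996 in knockout 4 and Mcm4 from 1718 in knockout 2 to 3986 in knockout 4. A processed pseudogene matches Mcm7 at 97.7% over 2157 nt, which makes its counts less certain.

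Per kilobase of their principal transcripts in GENCODE M21, the ring subunits had mean levels of 753 (Mcm2), 693 (Mcm3), 767 (Mcm4), 428 (Mcm5), 1030 (Mcm6) and 852 (Mcm7) normalized counts. Mcm6 was the highest and Mcm5 the lowest of the 6 in each library, although the ring holds 1 copy of each protein. These levels depend on the transcript taken for the length. Mcm10, which shares the name but is not part of the ring, had a mean of 96.0 normalized counts per kilobase.

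**Figure D3:**
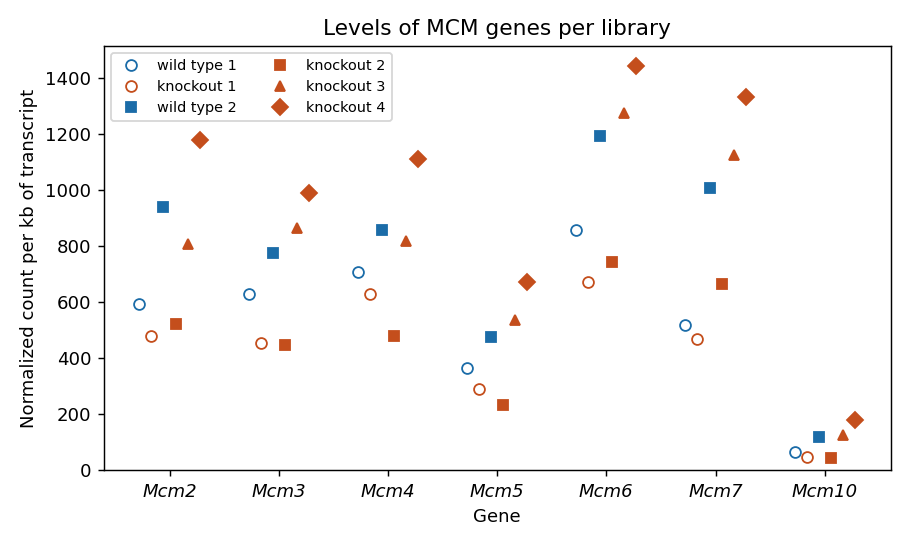
Normalized counts per kilobase of principal transcript for Mcm2 to Mcm7 and Mcm10, with 1 mark for each of the 6 libraries. Within the second set each gene has knockout 2 lowest and knockout 4 highest, and Mcm10 (mean 96.0) lies below the ring subunits (means 428 to 1030).

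The origin recognition subunits varied less. Orc6 stood at 1103 and 1538, against 1028, 1245, 1412 and 1525, and was the one member of the licensing group that was highest in wild type 2. Exons of Vps35, which had a mean of 10650 normalized counts, cover 6.93% of the exon bases of Orc6 on the opposite strand. Strand was not marked, so the counts of Orc6 are less certain. Orc1, the largest subunit, stood at 230 and 211, against 206, 167, 220 and 290. Its estimate was -0.02 ± 0.26 (log2, SE), and its highest library exceeded its lowest 1.73-fold.

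Among the genes that activate the helicase, Mcm10 had the widest range. It stood at 318 and 574, against 228, 205, 614 and 865, so knockout 4 exceeded knockout 2 by 4.21-fold. The genotype estimate was -0.11 ± 0.68 (log2, SE). Cdc45, which joins the helicase at the start of S phase, stood at 485 and 755, against 324, 405, 837 and 1079. Knockout 1 and 2 were again the lowest pair and knockout 4 the highest.

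The 4 GINS subunits, which form one complex, differed in range. Gins1 spanned 3.20-fold between its lowest and highest library, Gins2 3.13-fold, Gins3 1.56-fold and Gins4 1.30-fold. Gins4 stood at 1042 and 1093, against 936, 879, 1052 and 1144, the narrowest spread of the 40 genes. Gins2 stood at 783 and 563, against 585, 264, 569 and 825, and so was higher in wild type 1 than in wild type 2. Exons of Gse1 on the opposite strand cover 67.3% of the exon bases of Gins2. The kit named in the labels does not mark strand, so reads of the 2 genes cannot be told apart there.

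Polymerase and primase genes were close to the common pattern. Pole, the catalytic subunit of the leading-strand polymerase, stood at 1086 and 1574, against 751, 643, 1636 and 2229. Across the 6 libraries its log2 values correlated with the median of the other 39 members at r = 0.999, a description over 6 points that share their libraries. Pola1, of the polymerase that starts new strands, ranged from 481 in knockout 1 to 1534 in knockout 4. Prim1, of the primase that works with it, ranged from 228 to 847 in the same libraries. Pold1, of the lagging-strand polymerase, ranged from 760 to 1463, again in these libraries.

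Pcna, the sliding clamp, stood at 2087 and 2501, against 1800, 1840, 2830 and 3145. Its estimate was 0.03 ± 0.28 (log2, SE; 95% interval -0.65 to 0.71), and knockout-labelled libraries lay on both sides of wild type. The pseudogene Pcna-ps2 matches Pcna at 99.2% over 781 nt and had 3.14 to 8.07 normalized counts. Of the clamp loader subunits, Rfc4 spanned 3.19-fold, Rfc3 2.45-fold, Rfc5 1.82-fold and Rfc2 1.46-fold. Exons of opposite-strand genes cover 15.1% of the exon bases of Rfc2 (Lat2), 12.65% of Rfc4 (Eif4a2) and 10.69% of Rfc5 (Wsb2). Strand was not marked, so these spans are less certain. Rpa2, of the protein that covers single-stranded DNA, ranged from 481 in knockout 2 to 869 in knockout 4. All 6 genes of this group were highest in knockout 4.

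The genes that finish Okazaki fragments differed from each other. Lig1, the replicative DNA ligase, stood at 956 and 1215, against 780, 744, 1386 and 1686, close to the common pattern (r = 0.985 with the median of the other members, 6 libraries). Fen1, the flap endonuclease, stood at 925 and 613, against 706, 436, 706 and 748, with its highest value in wild type 1 (r = 0.404). An antisense gene covers 78.8% of the exon bases of Fen1 in the annotation, and its reads cannot be told from those of Fen1.

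Genes of nucleotide synthesis had knockout 2 as their lowest library in all 4 cases. Rrm1, the large subunit of ribonucleotide reductase, stood at 6473 and 6166, against 7519, 3628, 5552 and 7907. Knockout 1 was above both wild type libraries for Rrm1, which held for 1 other member, E2f1. Rrm2, the small subunit of the same enzyme, stood at 3198 and 2606, against 2687, 1308, 2849 and 4198. Here knockout 1 lay between the wild type libraries, so the 2 subunits differed in the first set. Tyms, thymidylate synthase, ranged from 614 in knockout 2 to 1356 in knockout 4. Tk1, a thymidine kinase, stood at 563 and 502, against 368, 235, 490 and 660, with an estimate of -0.38 ± 0.41 (log2, SE).

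Genes of chromatin assembly and maintenance at the fork spread widely. Uhrf1, which guides maintenance DNA methylation, stood at 1257 and 1446, against 910, 558, 1547 and 2110. Hells, a chromatin remodeller, stood at 775 and 1502, against 591, 726, 1352 and 2290. Knockout 4 was highest for both, by 3.78-fold and 3.88-fold over the lowest library. Chaf1a and Chaf1b encode subunits of the histone chaperone CAF-1. Chaf1a ranged from 642 in knockout 2 to 1464 in knockout 4, and Chaf1b from 418 in knockout 1 to 1162 in knockout 4. Exons of Ubxn6 on the opposite strand cover 52.5% of the exon bases of Chaf1a, and a processed pseudogene matches Uhrf1 at 98.3% over 1590 nt, so both counts are uncertain.

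E2F factors and E-type cyclins, which act at the entry into S phase, held both ends of the pattern. Ccne2 stood at 359 and 539, against 291, 232, 676 and 1056, the widest range of the 40 genes. Its relative Ccne1 stood at 1126 and 1059, against 1066, 674, 1047 and 1336. Knockout 2 was low and knockout 4 high for both cyclins, but for Ccne1 the other 4 libraries were nearly equal. Exons of Ints8, which had a mean of 1731 normalized counts, cover 17.4% of the exon bases of Ccne2 on the opposite strand. Strand was not marked, so the counts of Ccne2 are less certain. E2f1, an activator, stood at 1499 and 1154, against 1572, 832, 1144 and 1242, and was the member least like the others (r = 0.097). E2f8, a repressor of the family, stood at 486 and 372, against 232, 193, 466 and 497, with an estimate of -0.41 ± 0.46 (log2, SE).

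Of the 40 members, 26 correlated with the median of the other 39 at r of at least 0.9 over the 6 libraries, and 9 at less than 0.8. The latter were Orc6, Gins2, Rfc2, Fen1, Rrm1, Rrm2, Chaf1a, E2f1 and Ccne1. The median r was 0.94. In 11 members wild type 1 was above wild type 2, and all but Orc6 of the 9 named are among them. These values describe few libraries and genes that are not independent, and carry no test.

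The rest of the pathway was taken from lists of known genes. Among 44 other replication factors, such as Cdc7 and Clspn, 0 were called by limma, edgeR or DESeq2, with 0 at an unadjusted p below 0.05, whether or not the fit held the library set. Their median differences from the wild type library of the set were -0.27, -0.47, -0.04 and 0.28 in knockout 1, 2, 3 and 4 (log2), where the 40 members had -0.35, -0.82, 0.06 and 0.38. Among 29 genes that control the passage from G1 to S, 0 were called by any of the 3 tools, with 0 at an unadjusted p below 0.05 from genotype alone. Their medians were -0.06, -0.04, 0.01 and 0.05 in knockout 1, 2, 3 and 4, closer to 0 than those of the members. Single genes of this list moved in both directions, so these medians do not show that each stayed level. In knockout 2, 16 were below wild type 2 and 13 above it, with log2 differences from -1.2 to 1.2. With a term for the library set, 1 of the 29, the kinase inhibitor gene Cdkn2b, reached an unadjusted p below 0.05 by each of the 3 tools, a share near the background of 3.51% (limma), 3.51% (edgeR) and 3.66% (DESeq2) of all genes. Cdkn2b stood at 3238 and 961, against 3015, 658, 677 and 733. Cdkn2a, whose products include the senescence-linked inhibitor p16, stood as a whole gene at 4585 and 717, against 4385, 327, 473 and 615. Both were named after their values were seen, and both were higher in the first library set than in the second under either genotype label.

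Mitosis genes were set beside the replication genes as genes of a later phase of the cycle. Of 20, among them Mki67, Top2a and Plk1, 0 were called by limma, edgeR or DESeq2, with 0 at an unadjusted p below 0.05. All 20 were highest in knockout 4, and 17 were lowest in knockout 2. Their median differences from the wild type library of the set were -0.59, -0.94, -0.35 and 0.54 in knockout 1, 2, 3 and 4. In knockout 3, 18 of 20 mitosis genes lay below wild type 2, against 15 of the 40 replication genes. Relative to gene means over all libraries, the replication median minus the mitosis median was -0.31 and 0.01 (log2) in wild type 1 and 2, and -0.08, 0.14, 0.40 and -0.18 in knockout 1, 2, 3 and 4. Knockout 3 thus had the highest replication level relative to mitosis genes, and wild type 1 the lowest. The difference between the lists was not tested, since each is a value of 1 library.

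**Figure D4:**
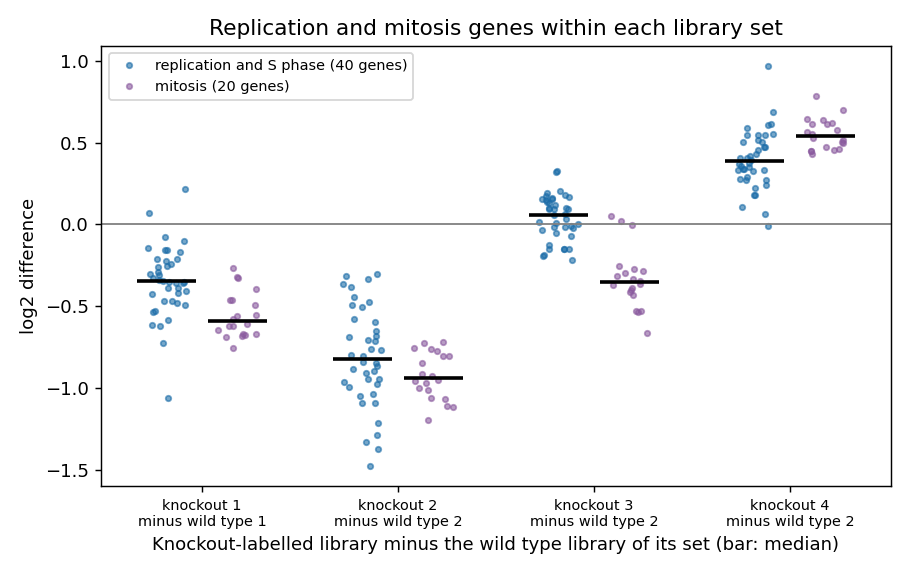
Log2 difference of each knockout-labelled library from the wild type library of its set, with 1 point for each of 40 replication genes and 20 mitosis genes and a bar at each median. Both medians lie below 0 in knockout 1 and 2 and above 0 in knockout 4, while in knockout 3 they are 0.06 and -0.35.

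Markers of other cell types differed between the same libraries. Endothelial markers (10 of 10 with a mean of at least 10) summed to 169776 and 54598 normalized counts, against 100721, 59569, 50772 and 36072. In the second set this order of the sums, with knockout 2 highest and knockout 4 lowest, was the reverse of that of the median replication gene. Single markers did not all follow it. Knockout 4 was below wild type 2 for 10 of 10, but knockout 2 was above wild type 2 for 6 and below it for 4. Smooth muscle and pericyte markers (7 of 7) summed to 235871 and 74330, against 215620, 126720, 98850 and 66932. Their sum was also highest in knockout 2 and lowest in knockout 4 within the second set. By gene, 6 of these markers were lower in knockout 4 than in knockout 2 and 1 was higher. Macrophage and leukocyte markers (12 of 12) summed to 5228 and 34881, against 4234, 34975, 47980 and 29427. Fibroblast markers (7 of 7) summed to 405377 to 477684 and mesothelial markers (5 of 5) to 8550 to 61241 over the 6 libraries. Lung epithelial markers (3 of 6) summed to at most 445, and Epcam did not exceed 6.06. No marker on these lists was at 0 in all libraries. The part of these cells in the spread of the replication genes was not tested.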

How the data were processed

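The submitters' processing notes list Trimmomatic 0.36, STAR 2.6.0c, featureCounts from Subread 1.6.1 and the build GRCm38.p6, while the series design text names older versions, HTSeq, and DESeq2 for normalization. The deposited values are a signal, read counts that the authors divided by 1 size factor per library. Whole reads were recovered for 100% of values, within 1e-06 of a read. At the lowest mean tested, 10, counting error alone is 31.6% (CV).

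Genes were tested with limma 3.58.1 in R 4.3.3 (mean-trend eBayes) on log2(normalized count + 1), which understates changes of low genes, with Benjamini-Hochberg adjustment over 15229 genes and a threshold of 0.05. Standard errors and 95% intervals come from this fit. Alternatives were edgeR 4.0.16, DESeq2 1.42.0, other pseudocounts, filters and scalings, a term for the library set and left-out libraries. The fits were tested on simulated counts. Annotation was GENCODE M21, where all 40 symbols matched, and copies (at least 95% identity over 200 nt) were found with BLAST 2.17.0. No pair of libraries of a genotype agreed within sampling noise. The text names all 40 members, and other genes only where a result turns on them. Members, lists and library sets were chosen with earlier results of these data known, and other genes were named after their values were seen.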

Additional observations from a re-analysis of the deposited data

Results flagged for a closer look

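Fen1 in knockout 2 lay far from the other knockout-labelled libraries, at 436 normalized counts against 706 to 748 in knockout 1, 3 and 4. It was the 1 gene so marked among 40 genes checked over the 4 knockout-labelled libraries, where chance marks about 1 group in 20. The 2 wild type libraries were too few to check.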

How the results depend on the processing

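Of the 40 members, 0 were called under each of the 20 alternatives, with adjusted p-values of at least 0.605, and each estimate moved by less than 1 SD of that gene over knockout-labelled libraries. Signs were less stable. The median difference was -0.10 from genotype alone, -0.02 by edgeR, -0.03 by DESeq2, -0.21 with a term for the library set and -0.12 in the second set alone. Leaving out 1 library moved it between -0.33 (without knockout 4) and 0.09 (without knockout 2, where 26 members took the other sign). It was also above 0 without wild type 2 (0.06) and without knockout 1 (0.04). Scaling mattered little, with 34 members below 0 as deposited, 33 with TMM and 34 with upper-quartile scaling.

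A fit with the title number as a replicate block draws only on the wild type and knockout libraries numbered 1 and 2. Knockout 1 and 2 are the libraries that held the lowest values of the members. In this limma fit the median was -0.58, 25 of 40 members had an unadjusted p below 0.05 and 0 were called. Over all genes the block called 0, with 781 of 15229 at an unadjusted p below 0.05. Deviations from group means correlated at 0.84 for number 1 and 0.56 for number 2, but at 0.67 between wild type 2 and knockout 3. With 2 wild type libraries, the deviations of wild type 2 are those of wild type 1 with the sign reversed. These values are therefore not independent, and 2 pairs do not show that the numbers pair the libraries.

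Over all genes, 1 was called from genotype alone, 2 with a pseudocount of 5 and 7 by DESeq2. With a term for the library set, edgeR called 2 and DESeq2 called 50. The second set alone gave 0, with 284 at an unadjusted p below 0.05, and leaving out 1 library gave 0 to 2. The causes were not tested.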

Other observations

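Promoter words differed between the genes of S phase and those of mitosis. In the same RefSeq windows, TTTGAA, the core of an element known from genes of late cell cycle phases, was found on either strand for 12 of 17 mitosis genes with a window (70.6%), 5 of 33 replication genes (15.2%) and 20.2% of all genes. CCAAT was found for 15 of 17 mitosis genes (88.2%), 20 of 33 replication genes (60.6%) and 41.1% of all genes. The E2F words were found for 1 of 17 mitosis genes (5.88%) and for 11 of 36 other replication factors (30.6%). These shares were not tested, and the gene groups were not matched for base composition. A match describes letters and is not evidence of binding.

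Of 7 listed inhibitors of cyclin-dependent kinases, 4 had their highest value in knockout 2, where the median replication gene was lowest, and 2 had their lowest value there. Over all tested genes, 21.2% were highest and 17.7% lowest in knockout 2. Cdkn1c (p57) stood at 112 and 273 normalized counts in wild type 1 and 2, against 211, 649, 402 and 209 in knockout 1, 2, 3 and 4. In the same order, Cdkn2c (p18) stood at 406 and 894, against 347, 1392, 922 and 811. Cdkn1b (p27) stood at 870 and 2477, against 832, 3014, 2697 and 2629, and Cdkn2d (p19) at 517 and 623, against 561, 805, 749 and 645. The other 3, Cdkn1a, Cdkn2a and Cdkn2b, were highest in wild type 1. Of these, Cdkn2a (327) and Cdkn2b (658) were lowest in knockout 2, opposite to the first 4. Knockout 1, where the median replication gene was also low, held the lowest values of Cdkn1b (832) and Cdkn2c (347). Cdkn1b, Cdkn2c and Cdkn2d were lower in the first library set than in the second under either genotype label. The 7 genes were named after their values were seen, and 0 of the 7 were called by limma, edgeR or DESeq2. A link between these inhibitors and the replication genes was not tested.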
